A study of Mus musculus with 10 samples.

Results

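High-voltage-activated calcium channel genes were followed across nuclei from mouse paraventricular thalamus (PVT) and the tissue around it. The set comprised 8 of the 33502 gene symbols in the deposited matrix. They were the pore (alpha1) genes Cacna1a (P/Q-type), Cacna1b (N-type), Cacna1c and Cacna1d (L-type) and Cacna1e (R-type), and the alpha2delta genes Cacna2d1, Cacna2d2 and Cacna2d3, all taken by symbol. The data were 10 single-nucleus RNA-sequencing libraries with 20503 nuclei, 10410 of them deposited as neurons. All mice were C57BL/6J and 12 weeks old, with no transgene or treatment. The methods describe punches from 4 mice pooled for a sample, with 4 such replicates, and do not say whether this held for all 10 libraries. A library, and not a nucleus, was the replicate. In 6 libraries the label gave the sex as female. In the other 4 it gave no sex, and the deposited metadata list them as male.

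The pore subunit of a high-voltage-activated channel opens on strong depolarization and sets the type of current. P/Q-type and N-type channels carry the calcium that triggers transmitter release at most fast synapses, L-type channels couple depolarization of the soma and dendrites to gene expression and R-type channels act at both sites. Alpha2delta subunits are extracellular proteins that bring the pore to the membrane and to release sites, and Cacna2d1 and Cacna2d2 encode the proteins bound by gabapentin and pregabalin. Thalamic relay neurons use these channels beside the low-threshold T-type channels of burst firing.

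Levels were UMIs (unique molecular identifiers, which mark captured RNA molecules) divided by all non-mitochondrial UMIs of that library and class and scaled to CPM, the usual sequencing-depth scale, given as mean ± SD over libraries. Libraries held between 875 and 7213 nuclei and between 5119927 and 55956635 UMIs, and the female libraries were shallower, with a median total of 6122012 UMIs against 26418930 in the others. Mitochondrial genes had 0 UMIs in the 4 libraries with no sex in the label and were left out of all totals. Over all pairs of libraries the highest number of shared nuclear barcodes was 8, and the highest share of the smaller library, in another pair, was 0.435%. The members had between 20030 UMIs (Cacna2d2) and 192340 UMIs (Cacna1c) in all nuclei, of which 90.1% (Cacna1d) to 97.3% (Cacna1b) were in neurons. Neurons were 10410 of the 20503 nuclei and the deepest, with a median of 11157 UMIs against 1756 to 3658 in the other types. The share of all UMIs that lay in neurons was not set beside these shares, so they do not measure enrichment.

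All 8 genes are long (GENCODE M21 on GRCm38, the build of the mm10 reference in the submitters' processing notes). Cacna1a lies on chromosome 8 from 84388440 to 84640246, Cacna1b on chromosome 2 from 24603887 to 24763152 and Cacna1c on chromosome 6 from 118587240 to 119196418. Cacna1d lies on chromosome 14 from 30039939 to 30491455, and Cacna1e on chromosome 1 from 154390731 to 154884501. The alpha2delta gene Cacna2d1 lies on chromosome 5 from 15934691 to 16374511, Cacna2d2 on chromosome 9 from 107399612 to 107529343 and Cacna2d3 on chromosome 14 from 28904943 to 29721864. The spans ranged from 129.7 kb for Cacna2d2 to 816.9 kb for Cacna2d3, and no source used here states whether intronic reads were counted. For that reason levels of different members were compared only per length. The libraries read 3′ ends, so a count need not scale with either length, and the values below do not rank expression. Per kb of gene span the neuron level was highest for Cacna1a at 2.39 CPM and lowest for Cacna2d3 at 0.726 CPM, whereas per kb of exon Cacna2d3 was highest at 68.0 CPM and Cacna1e lowest at 18.5 CPM, so that the order of the members depended on the length used. Genes on the opposite strand overlap 7 of the 8 members. Among them are Chdh and Dcp1a at Cacna1d, Dcp1b at Cacna1c and Lrtm1 at Cacna2d3. Annotated genes overlapping on the same strand were 1 each at Cacna1c, Cacna1d, Cacna2d1 and Cacna2d3.

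Of the members, 7 matched the RefSeq table of starts, all but Cacna1a. The 5 of them with 1 start are shown, since each differed between neuron classes (values follow), by the 150 bases before that start on the gene's strand, 5′ to 3′, from GRCm38.p6. Capitals mark the GC box GGGCGG or its complement CCGCCC, the site read by Sp1-family factors. The first pair was high in Nwd2 neurons, the second pair low in them, and Cacna2d3 high in Adarb2 neurons.
Cacna1e, chr1:154725921-154726070, minus strand: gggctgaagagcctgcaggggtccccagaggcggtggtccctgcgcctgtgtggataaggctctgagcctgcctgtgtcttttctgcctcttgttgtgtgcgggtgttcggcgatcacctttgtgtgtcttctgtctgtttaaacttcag
Cacna2d2, chr9:107399730-107399879, plus strand: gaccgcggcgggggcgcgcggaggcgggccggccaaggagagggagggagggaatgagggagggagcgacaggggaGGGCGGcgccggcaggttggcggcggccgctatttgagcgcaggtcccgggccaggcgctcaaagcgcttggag
Cacna1b, chr2:24763153-24763302, minus strand: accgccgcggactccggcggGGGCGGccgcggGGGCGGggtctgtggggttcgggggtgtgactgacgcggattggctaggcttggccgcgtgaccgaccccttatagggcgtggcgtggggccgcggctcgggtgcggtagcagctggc
Cacna2d1, chr5:15934541-15934690, plus strand: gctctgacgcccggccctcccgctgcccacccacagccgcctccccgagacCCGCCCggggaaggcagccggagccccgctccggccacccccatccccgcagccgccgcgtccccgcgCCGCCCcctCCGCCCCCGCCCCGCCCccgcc
Cacna2d3, chr14:29721865-29722014, minus strand: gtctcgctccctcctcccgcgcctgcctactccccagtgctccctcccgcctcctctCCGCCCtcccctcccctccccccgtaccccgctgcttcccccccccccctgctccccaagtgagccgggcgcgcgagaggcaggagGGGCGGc

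On both strands the GC box occurred 0 times upstream of Cacna1e, 1 time upstream of Cacna2d2, 2 times upstream of Cacna1b, 5 times upstream of Cacna2d1 and 2 times upstream of Cacna2d3, and 28.6% of all 32851 RefSeq windows of this length held at least 1. The G and C content was 57.3% at Cacna1e and between 76.0% and 85.3% at the other four, beside a median of 54.0% over all windows. A CRE half-site (TGACG or CGTCA, in 13.3% of all windows) was found 1 time each at Cacna1b and Cacna2d1, and a TCF/LEF core (CTTTGA or TCAAAG, in 7.93%) 1 time, at Cacna2d2. These matches describe the letters only. The libraries read 3′ ends and do not show which start a transcript used, and the RefSeq starts of Cacna1e and Cacna2d2 shown here lie inside longer GENCODE spans.

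Across the deposited cell types, neurons had the highest mean CPM of every member. Cacna1d, Cacna2d2, Cacna1a and Cacna2d3 were also well above the neuronal background in some glia. The deposited names come from a clustering of these nuclei on all genes, so these levels are a description with no test. Cacna1a had 601 ± 68.4 CPM in neurons (SD, n = 10), Cacna1b 327 ± 46.0, Cacna1c 1369 ± 169 and Cacna1d 496 ± 53.0. Cacna1e in neurons had 403 ± 101 CPM in the 6 female libraries and 560 ± 144 in the other 4. The deposited cluster Neurons (6), high in Cacna1e, varied in share within both sets. It held 118 of 438 neurons in library 1 with no sex in the label (770 CPM over all neurons) and 135 of 3557 in library 4 (445 CPM). In female library 1 it held 166 of 709 (592 CPM) and in female library 6 it held 13 of 562 (356 CPM). The part of this mix in the set difference was not tested. For the alpha2delta genes the neuron levels were 422 ± 38.0 CPM for Cacna2d1, 149 ± 40.5 for Cacna2d2 and 593 ± 76.3 for Cacna2d3. Free neuronal RNA was not measured directly. It was gauged by the neuron markers Rbfox3, Snap25 and Syt1, which in astrocytes reached 6.55%, 13.2% and 7.23% of their neuron level.

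Against that background Cacna1d in astrocytes stood at 41.3 ± 5.41% of the neuron level (n = 10) and Cacna2d2 at 53.9 ± 11.7%, with Cacna1a at 15.0 ± 3.17%, whereas Cacna1b, Cacna1c, Cacna1e, Cacna2d1 and Cacna2d3 stayed between 4.41% and 8.60%. Cacna1d, an L-type pore, had the highest percent of any member in microglia and in ependymal cells. It reached 76.2 ± 12.3% of the neuron level in microglia, where the neuron markers had 12.8% to 22.3%, and 85.7 ± 25.4% in ependymal cells (n = 9), where they had 16.7% to 26.1%. In oligodendrocyte precursor cells (OPCs) Cacna1a stood at 62.1 ± 8.07%, Cacna1d at 63.2 ± 15.7% and Cacna2d3 at 60.6 ± 8.48% (n = 9), beside 14.1% to 34.9% for the neuron markers, and Cacna1b at 18.0 ± 14.6%. Means above the markers, with a wider spread, were also found for Cacna2d2 (45.0 ± 20.5%) and Cacna1e (39.9 ± 13.4%) in OPCs. In ependymal cells this held for Cacna1a (44.3 ± 18.2%), Cacna2d2 (34.3 ± 18.0%) and Cacna1e (30.6 ± 15.7%), and in microglia for Cacna1a (27.5 ± 8.30%). Oligodendrocytes held all 8 members at 7.17% to 16.2%, within or near the 11.8% to 16.8% of the neuron markers. In fibroblasts, counted in 8 libraries, Cacna2d1 was at 55.8 ± 27.1% and Cacna1c at 41.4 ± 11.9%, beside 19.4% to 23.9% for the markers. Median depth was 11157 UMIs in neurons against 1756 to 3658 in the other types, and endothelial and fibroblast sums came from only 7 and 8 libraries.

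**Figure D1:**
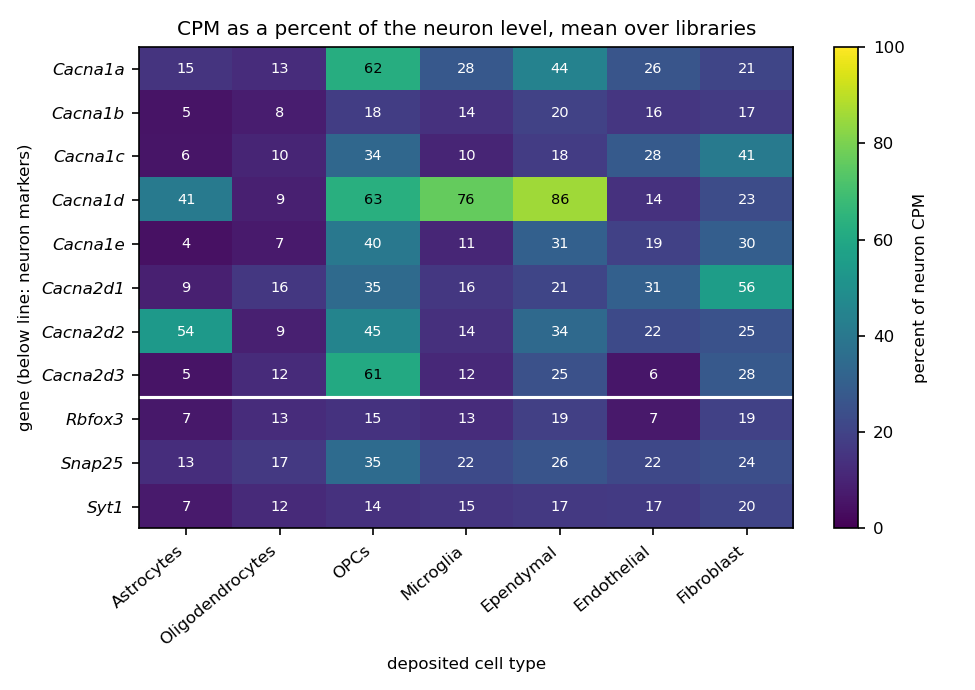
Each cell gives a member's CPM in a deposited cell type (x axis) as a percent of its CPM in neurons, as the mean over libraries. Below the white line are 3 neuron markers, used as a gauge of free neuronal RNA. Cacna1d stands out in astrocytes, OPCs, microglia and ependymal cells, Cacna2d2 in astrocytes, and Cacna1a and Cacna2d3 in OPCs. Cacna2d2 and Cacna1e in OPCs and ependymal cells, and Cacna1a in astrocytes, ependymal cells and microglia, also lie above the markers. The same holds for Cacna1a, Cacna1c, Cacna2d1 and Cacna2d2 in endothelial cells. In fibroblasts it holds for Cacna1c, Cacna1e, Cacna2d1, Cacna2d2 and Cacna2d3.

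Neurons were then split by the regional marker with the highest count relative to its mean in that library (at least 2 UMIs, and at least 2 times the next marker's relative count). C1ql3 marks the PVT, Adarb2 the mediodorsal thalamus, Gad2 GABA neurons and Nwd2 the habenula. The split gave 3888 C1ql3, 1785 Adarb2, 316 Gad2 and 955 Nwd2 neurons, and 3466 neurons met no rule. Sums of at least 10 nuclei were available from 10 libraries for each class and from 8 for Gad2. The other markers of a region followed the split in 3 classes. PVT markers summed to 900 ± 118 CPM in C1ql3 neurons and 75.5 ± 22.7 in Adarb2 neurons, mediodorsal markers to 1741 ± 411 in Adarb2 neurons and 29.9 ± 12.5 in C1ql3 neurons, and habenula markers to 7781 ± 909 in Nwd2 neurons and 11.3 ± 7.99 in C1ql3 neurons (n = 10 each).

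The Adarb2 class was not mediodorsal alone. Intermediodorsal markers summed to 55.4 ± 13.9 CPM in it and 9.16 ± 2.17 in C1ql3 neurons. Of its nuclei 1029 lay in Neurons (3), 357 in Neurons (7) and 272 in Neurons (8), where Cacna2d3 had 1510, 1065 and 938 CPM. Cacna1e had 86.2 to 203 CPM over libraries in Neurons (3), 164 to 287 in Neurons (8) and 307 to 469 in Neurons (7). Neurons (7) was thus at the level of the C1ql3 class (282 to 437). Cacna2d2 had 39.9 to 67.7 CPM in Neurons (3), 27.8 to 117 in Neurons (8) and 68.4 to 121 in Neurons (7). Neurons (1), with 2078 of the C1ql3 nuclei, had 87.7 to 143 CPM and overlapped Neurons (7) and (8). The Adarb2 levels below thus cover clusters with unlike levels.

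The Gad2 class went against its label. It held PVT markers at 570 ± 120 CPM (n = 8), and the GABA genes Gad1 and Slc32a1 at only 33.5 ± 29.5 and 42.0 ± 40.7 CPM. Only 125 of its 316 nuclei were in the deposited cluster Neurons (5), and most others lay in the clusters of the C1ql3 neurons. It is therefore called the Gad2 class here and not GABA neurons. Each test was repeated without it.

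The clearest separation was that of Nwd2 neurons. They carried R-type Cacna1e and Cacna2d2 above the level of both thalamic classes and had little of the release-site pores Cacna1a and Cacna1b or of Cacna2d1. Cacna1e in Nwd2 neurons ranged over libraries from 1283 to 2440 CPM with a median of 1451. In C1ql3 neurons it ranged from 282 to 437 with a median of 400, and in Adarb2 neurons from 148 to 294 with a median of 195. Every Nwd2 library thus lay above every C1ql3 and Adarb2 library. Cacna2d2, whose product is the alpha2delta subunit of many Purkinje cell channels, had the same order, with 274 to 531 CPM (median 370) in Nwd2, 122 to 185 (median 150) in C1ql3 and 43.5 to 75.9 (median 67.9) in Adarb2 neurons, and none of these ranges overlapped.

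Cacna1a ran the other way. It had 79.4 to 207 CPM (median 134) in Nwd2 neurons against 500 to 785 (median 565) in C1ql3 and 702 to 1082 (median 821) in Adarb2 neurons. Cacna1b had 26.8 to 165 CPM (median 69.7) in Nwd2, 284 to 428 (median 315) in C1ql3 and 331 to 464 (median 389) in Adarb2 neurons. For both genes the Nwd2 range lay apart, while the C1ql3 and Adarb2 ranges overlapped, although Adarb2 was higher in each of the 10 libraries. Cacna2d1 repeated this order with 31.5 to 214 CPM (median 91.7), 401 to 465.7 (median 417) and 438 to 607 (median 528).

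Cacna2d3 was the member that most separated the 2 thalamic classes. It ranged from 1184 to 1569 CPM (median 1390) in Adarb2 neurons, from 277 to 384 (median 320) in C1ql3 neurons and from 48.2 to 210 (median 138) in Nwd2 neurons, with no overlap. Among the L-type pores, Cacna1c had 1833 to 2420 CPM (median 2264) in Adarb2, 960 to 1483 (median 1144) in C1ql3 and 565 to 1150 (median 733) in Nwd2 neurons, so that only the Adarb2 range lay apart. Cacna1d varied least, with 431 to 563 CPM (median 516) in Adarb2, 420 to 539 (median 471) in C1ql3 and 481 to 927 (median 683) in Nwd2 neurons, all overlapping.

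**Figure D2:**
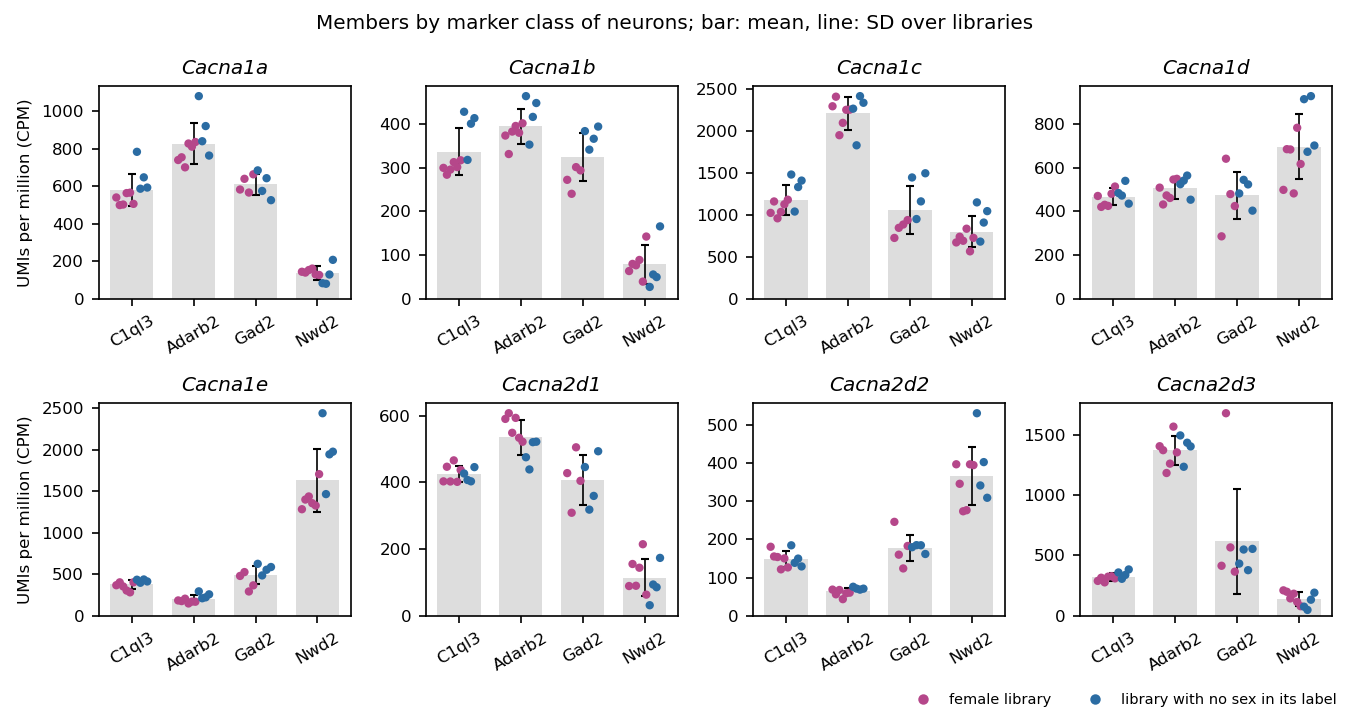
Points are libraries, bars their mean and lines the SD of the CPM (y axis, linear, from 0) in the 4 marker classes, with 10 libraries a class and 8 for Gad2. Cacna1e and Cacna2d2 are highest in the Nwd2 class and lowest in Adarb2, Cacna1a, Cacna1b and Cacna2d1 are lowest in Nwd2, and Cacna2d3 and Cacna1c are highest in Adarb2.

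Differences between classes were tested with edgeR's quasi-likelihood test over all 11737 genes that passed the count filter, with the library as a block. A gene was called at a Benjamini-Hochberg adjusted p under 0.05 and an absolute log2 fold change above 0.5. All 8 members passed the filter. Between C1ql3 and Adarb2 neurons 23.5% of all genes tested were called, and among the members 5 of 8, with 2 higher and 3 lower in C1ql3 neurons. On the log2 scale Cacna2d3 stood at -2.21 ± 0.15 (fold change ± SE, adjusted p = 1e-15), Cacna1c by -1.06 ± 0.09 (7.71e-14) and Cacna1a by -0.65 ± 0.10 (4.29e-07), each in 10 of 10 libraries. Cacna1e was higher by 0.78 ± 0.08 (adjusted p = 5.24e-11) and Cacna2d2 by 1.06 ± 0.08 (5.42e-15), also in 10 of 10 libraries. The other 3 had an adjusted p under the limit but a fold under it: Cacna2d1 -0.46 ± 0.12, Cacna1b -0.36 ± 0.12 and Cacna1d -0.24 ± 0.09. The members' median was -0.41 and that of all genes 0.01. The neuron markers Rbfox3, Snap25 and Syt1 also differed between the classes, with a sum of 2218 ± 117 CPM in C1ql3, 3946 ± 203 in Adarb2 and 2960 ± 345 in Nwd2 neurons, and their part in these differences was not tested.

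Between C1ql3 and Nwd2 neurons all 8 members were called, where 40.4% of all genes were. Higher in C1ql3 neurons were Cacna1b by 2.31 ± 0.16 on the log2 scale (adjusted p = 1.27e-16), Cacna1a by 2.13 ± 0.12 (2.41e-19), Cacna2d1 by 1.96 ± 0.15 (6.34e-15), Cacna2d3 by 1.26 ± 0.18 (6.17e-08) and Cacna1c by 0.56 ± 0.09 (6.82e-07). Lower were Cacna1e by -2.08 ± 0.08 (1.34e-24), Cacna2d2 by -1.30 ± 0.08 (2.17e-18) and Cacna1d by -0.58 ± 0.09 (7.39e-07). Every one of these held its direction in 10 of 10 libraries. When classes were instead made from nuclei with at least 1 UMI of a marker and none of the others, the values for Cacna1a, Cacna1b, Cacna2d1 and Cacna2d3 shrank to 1.11, 1.33, 1.17 and 0.72 and stayed called, whereas the call for Cacna1d was lost at -0.41. Its call was also lost in the female libraries alone (-0.45), and that for Cacna1c in the other 4 alone (0.50).

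Between Adarb2 and Nwd2 neurons 7 of 8 members were called, where 43.4% of all genes were. The log2 fold change was 3.48 ± 0.18 for Cacna2d3 (adjusted p = 2.9e-20) and -2.86 ± 0.08 for Cacna1e (1.53e-28), the extremes of the members in any pair of classes. Cacna1a had 2.78 ± 0.12, Cacna1b 2.68 ± 0.16, Cacna2d1 2.42 ± 0.15, Cacna1c 1.63 ± 0.09 and Cacna2d2 -2.36 ± 0.08, each in 10 of 10 libraries. Cacna1d was the exception with -0.34 ± 0.09, under the fold limit. Without normalization factors (TMM) the median of all genes moved by over 0.1 in contrasts with Adarb2 neurons, from 0.01 to 0.15 for C1ql3 against Adarb2 and from -0.07 to -0.18 for Adarb2 against Nwd2. The share of called genes that were higher in C1ql3 than in Adarb2 neurons then went from 55.8% to 71.0%. No called member changed direction under this scaling.

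**Figure D3:**
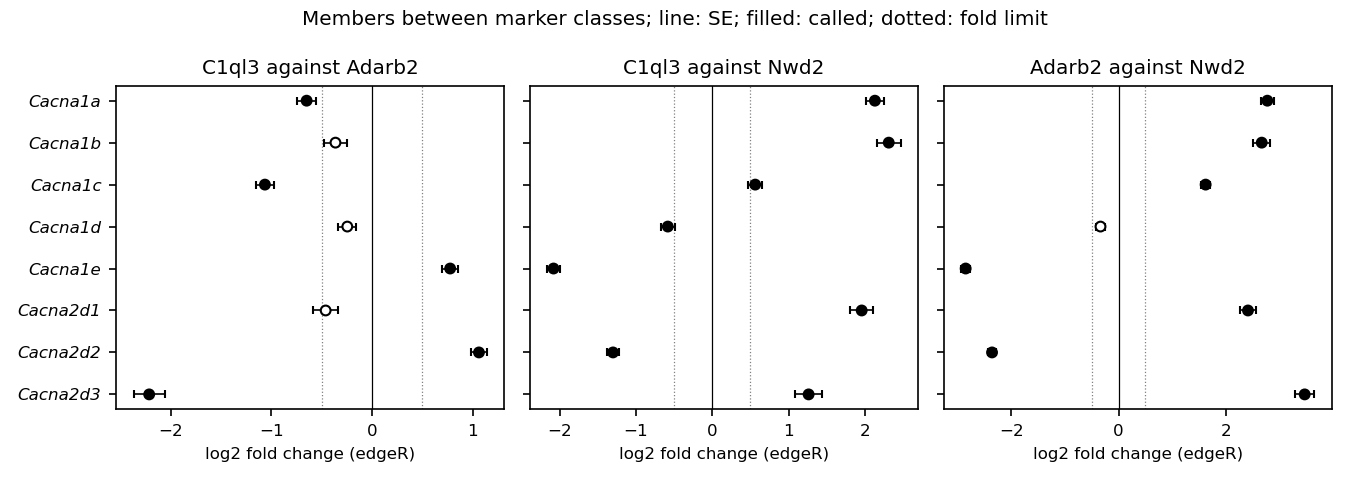
The x axis gives the log2 fold change from edgeR of each member between 2 marker classes, the line its SE, and filled points are called, with dotted lines at the fold limit of 0.5. Cacna1e and Cacna2d2 lie opposite to the other called members in the panels with Adarb2, and Cacna1d is nearest 0 in the 2 panels with Adarb2.

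The low levels in Nwd2 neurons were set beside those in astrocytes. Each nucleus was thinned to 2000 UMIs without replacement, as an expected value, nuclei below that depth were left out, and the share of nuclei with a UMI was taken per library. This kept 900 of 955 Nwd2 neurons, 3882 of 3888 C1ql3 neurons and 4291 of 5302 astrocytes. Cacna1a then had 14.7 ± 4.98% in Nwd2 neurons, 15.1 ± 3.29% in astrocytes and 66.4 ± 4.68% in C1ql3 neurons. Astrocytes were not taken as a background for this gene, since their Cacna1a level relative to neurons (15.0 ± 3.17%) had a mean above those of the 3 neuron markers, although Snap25 (13.2 ± 7.69%) overlapped it. Unthinned shares for Cacna1a were 24.2%, 24.4% and 96.1% in Nwd2 neurons, astrocytes and C1ql3 neurons. Cacna1b had 9.64 ± 4.92% in Nwd2 neurons and 3.26 ± 2.05% in astrocytes, Cacna2d1 13.3 ± 5.02% and 6.40 ± 3.41%, and Cacna2d3 13.6 ± 4.35% and 5.36 ± 3.24%. Cacna1e was found in 89.7 ± 4.25% of Nwd2 neurons and 3.62 ± 2.40% of astrocytes. Unthinned median depth was 7334 UMIs in Nwd2 neurons, 12666 in C1ql3 and 13214 in Adarb2 neurons. In the deposited cluster Neurons (6), which held 821 of the 955 Nwd2 neurons, Cacna1a had a mean of 42.8 CPM, Cacna1b 28.3, Cacna2d1 43.5, Cacna2d3 50.3 and Cacna1e 1807. All but Cacna1e were below the class means of 135, 78.6, 114 and 138 CPM. Another 111 Nwd2 neurons lay in Neurons (5), where the same 4 genes had 616, 307, 503 and 491 CPM.

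Against the mean of the other 3 classes, Nwd2 neurons had 8 of 8 members called (39.8% of all genes), with Cacna1e at 2.25 ± 0.06, Cacna2d2 at 1.60 ± 0.07 and Cacna1d at 0.52 ± 0.08 higher and Cacna1b at -2.41 ± 0.14 the lowest. The value for Cacna1d lay near the fold limit, and it was called in 11 of 20 alternatives (0.39 to 0.67). Adarb2 neurons had 7 of 8 (27.2% of all genes), led by Cacna2d3 at 2.39 ± 0.12 and Cacna1e at -1.56 ± 0.07. C1ql3 neurons had 4 of 8 (17.1% of all genes): Cacna1b 0.67 ± 0.10, Cacna2d1 0.52 ± 0.11, Cacna2d3 -0.56 ± 0.13 and Cacna1e -0.52 ± 0.07. All but Cacna1b lay near the fold limit, and the count fell to 2 without library 1 of those with no sex in the label.

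The Gad2 class differed little from C1ql3 neurons. In that pair 3.71% of all genes and 1 of 8 members were called, Cacna2d3 at -0.73 ± 0.18 (lower in C1ql3 neurons in 8 of 8 libraries, adjusted p = 0.00811), and this call was lost without female library 2 (-0.48, adjusted p = 0.0856). That library had 1681 CPM in the Gad2 class from 12 nuclei, and the other 7 had 366 to 567. The remaining members lay between -0.27 ± 0.09 for Cacna1e and 0.20 ± 0.10 for Cacna1c. Against Adarb2 neurons 6 of 8 members were called (21.9% of all genes), against Nwd2 neurons 7 of 8 (34.7%), and against the mean of the other classes 2 of 8 (11.4%), Cacna1a at 0.51 ± 0.10 and Cacna1b at 0.58 ± 0.13. Without library 1 of those with no sex in the label that last count was 0. With the Gad2 class left out of the fit, 5, 8 and 7 members were called in the pairs of C1ql3 and Adarb2, C1ql3 and Nwd2, and Adarb2 and Nwd2, as with it.

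Nuclei with UMIs of at least 2 of the GABA genes Gad1, Gad2 and Slc32a1 were few, 137 in all with 82 from 1 library, and 126 of them were in Neurons (5). This stricter group was formed after the data had been seen, and its sums were too small for a test. Its levels had exact Poisson 95% intervals that cover counting error only. Cacna1c was at 806 CPM (758 to 856), Cacna2d1 at 207 (183 to 233), Cacna2d3 at 521 (482 to 561), Cacna1a at 655 (612 to 700) and Cacna1e at 584 (544 to 627). PVT markers were not absent from it, as C1ql3 had 86.5 CPM.

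Ratios within a library do not depend on the total, and a difference of a ratio between classes does not depend on gene length. They are a description. The log2 ratio of Cacna2d1 to Cacna2d3 UMIs was 0.40 ± 0.13 in C1ql3 neurons (lowest 0.21) and -1.36 ± 0.19 in Adarb2 neurons (highest -1.09). The C1ql3 and Adarb2 classes thus did not overlap in this ratio. Its sign says nothing of which gene leads, as the genes differ in length. Cacna1a to Cacna1b differed less across the classes, at 0.79 ± 0.12 in C1ql3, 1.07 ± 0.15 in Adarb2 and 0.93 ± 0.59 in Nwd2 neurons. Cacna1c to Cacna1d was 1.32 ± 0.20 in C1ql3, 2.13 ± 0.20 in Adarb2 and 0.20 ± 0.36 in Nwd2 neurons, and these 3 classes did not overlap, although the highest C1ql3 library (1.70) came close to the lowest Adarb2 library (1.76).

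**Figure D4:**
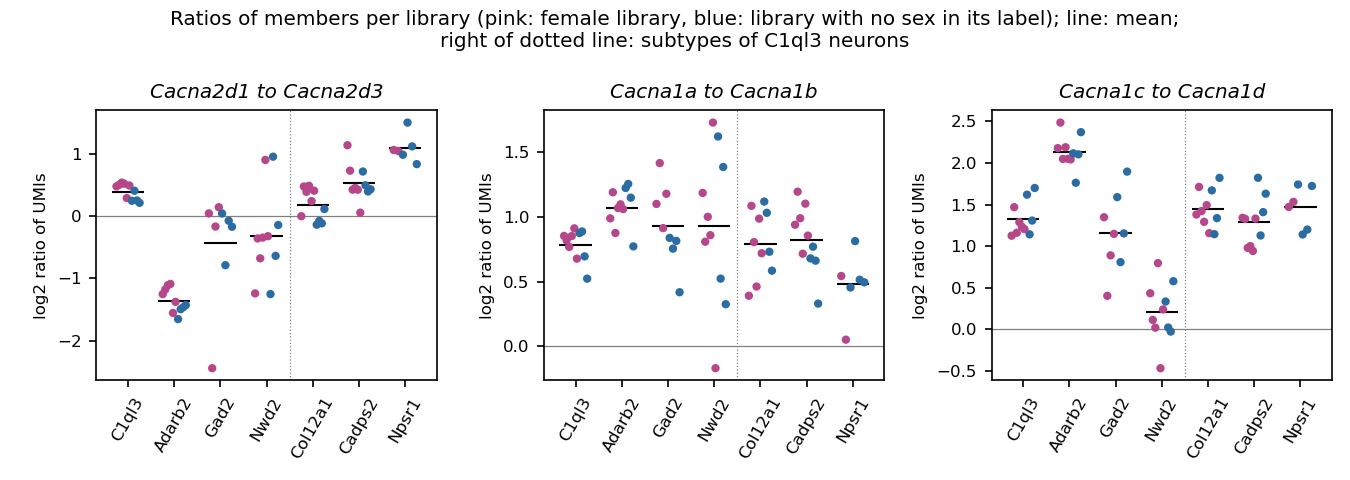
Points are the log2 ratios of UMIs of 2 members in each library (y axis) and lines their means, for the 4 regional classes and, right of the dotted line, the 3 subtype classes of C1ql3 neurons. Cacna2d1 to Cacna2d3 is higher in all C1ql3 libraries than in any Adarb2 library, while the sign of a ratio depends on gene length.

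Over the 38 sums of library and class, centred within library, Cacna1e and Cacna2d2 followed each other (Pearson r = 0.96), as did Cacna1a and Cacna1b (0.97) and Cacna1a and Cacna2d1 (0.95), and Cacna1a and Cacna1e were opposite (-0.97). These points share libraries and classes, and the r values are a description of the 4 class levels. The 2 genes most like each member were Tmem132b and Spock3 for Cacna1a (0.99 and 0.98), Cadps and Lingo2 for Cacna1b (0.98 and 0.98) and Hivep3 and Plcb4 for Cacna1c (0.98 and 0.97). For Cacna1d they were Glmn and Thsd7a (0.90 and 0.88), the lowest of the members, and for Cacna1e Plcl1 and Nfat5 (0.99 and 0.98). For the alpha2delta genes they were Frmd5 and Kcnq3 for Cacna2d1 (0.97 and 0.97), Nfat5 and Tmem176b for Cacna2d2 (0.98 and 0.98) and Kctd16 and Pde7b for Cacna2d3 (0.97 and 0.96).

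Other genes of the calcium channel machinery were counted in 3 lists. The called shares of all genes, 23.5% for C1ql3 against Adarb2, 40.4% for C1ql3 against Nwd2 and 43.4% for Adarb2 against Nwd2, stand as the background to these counts. Of 20 other channel genes (T-type pores, beta and gamma subunits, the leak channel Nalcn) 16 were tested. Between C1ql3 and Adarb2 neurons 4 were higher and 5 lower in C1ql3 neurons, where the pore gene Cacna1h (T-type) was at 1.82 ± 0.22, Cacng3 at 1.37 ± 0.13, Cacng5 at -3.05 ± 0.16 and Cacng4 at -1.42 ± 0.08, the Cacng genes encoding auxiliary subunits of AMPA receptors. Between C1ql3 and Nwd2 neurons 10 were higher and 3 lower, among them the T-type pore Cacna1g at 2.49 ± 0.15, Cacng3 at 3.11 ± 0.18, the beta subunit Cacnb3 at -3.26 ± 0.11 and Cacng5 at -3.70 ± 0.18. Between Adarb2 and Nwd2 neurons 7 were higher and 4 lower, with Cacna1g at 3.13 ± 0.15, Cacnb4 at 2.02 ± 0.09 and Cacnb3 at -3.11 ± 0.11.

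Of 20 partners of the channels at release sites and the membrane, 15 were tested. In C1ql3 against Adarb2 neurons 2 were higher and 2 lower, a share near that of all genes. They were Stac2 (an adaptor of L-type channels) at 3.63 ± 0.26, Erc2 (active zone) at 0.55 ± 0.08, the neurexin gene Nrxn3 at -3.16 ± 0.21 and the calcium sensor gene Cabp1 at -1.78 ± 0.29. In C1ql3 against Nwd2 neurons 5 were higher and 5 lower, with Cabp1 at -5.61 ± 0.21, Elfn1 (a synaptic adhesion protein) at -4.78 ± 0.16, Stac at -2.29 ± 0.14 and Stac2 at 3.81 ± 0.39. In Adarb2 against Nwd2 neurons 5 were higher and 4 lower.

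Of 17 genes of calcium stores and clearance, 14 were tested. In C1ql3 against Adarb2 neurons 3 were higher and 6 lower, the ryanodine receptor Ryr3 at -2.80 ± 0.17 and the plasma membrane pumps Atp2b4 at -1.89 ± 0.33, Atp2b2 at -1.71 ± 0.09 and Atp2b1 at -1.31 ± 0.09. In C1ql3 against Nwd2 neurons 5 were higher and 5 lower, with Ryr2 at -3.28 ± 0.11 and the IP3 receptor Itpr1 at 2.12 ± 0.13. In Adarb2 against Nwd2 neurons 8 were higher and 4 lower, with Ryr2 at -4.41 ± 0.12. In the pair of C1ql3 and Gad2 the counts of the 3 lists were 0 higher and 2, 3 and 3 lower. There 3.71% of all genes were called, 131 higher and 305 lower in C1ql3 neurons.

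Within the PVT, C1ql3 neurons were split in the same way by Col12a1 (726 nuclei), Cadps2 (678) and Npsr1 (206, with a sum from 6 libraries), markers of PVT subtypes, and 2278 of the 3888 met no rule. The split used these genes, so their levels are a description, and the classes were not fully apart in them. Cadps2 had 1055 ± 205 CPM in Cadps2, 389 ± 161 in Npsr1 and 10.0 ± 10.8 in Col12a1 neurons, while Npsr1 had 578 ± 206 CPM in its own class and 3.11 ± 3.42 in Cadps2 neurons. No class was made for the PVT1 and PVT5 subtypes of the paper. PVT1 markers summed to 64.1 ± 25.3 CPM in Col12a1, 11.5 ± 4.12 in Cadps2 and 9.69 ± 5.26 in Npsr1 neurons. PVT5 markers summed to 48.1 ± 15.4, 66.4 ± 17.5 and 57.1 ± 17.4 CPM in the same order. Cacna1e and Cacna2d2, the pair that was high in Nwd2 neurons, had lower levels in Col12a1 neurons than in both other subtype classes. Cacna1e ranged from 150 to 291 CPM (median 234) in Col12a1 neurons, from 382 to 560 (median 467) in Cadps2 neurons and from 400 to 755 (median 692) in Npsr1 neurons. The Col12a1 range lay below both others. Cacna2d2 had 78.8 to 162 CPM (median 96.9), 160 to 269 (median 220) and 204 to 253 (median 220) in the same order, and here the Col12a1 and Cadps2 ranges overlapped slightly.

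Cacna1a was higher in Col12a1 neurons, with 492.8 to 864 CPM (median 636) against 371 to 634 (median 447) in Cadps2 and 362 to 559 (median 461) in Npsr1 neurons, ranges that overlapped. Cacna2d3 was at 293 to 449 CPM (median 374) in Col12a1, 210 to 434 (median 314) in Cadps2 and 158 to 303 (median 247) in Npsr1 neurons. Cacna1c and Cacna1d were close across the 3 classes, with means of 1142 to 1293 and 422 to 474 CPM.

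In the test over 6658 genes, 17.4% of all genes and 3 of 8 members were called between Col12a1 and Cadps2 neurons. Cacna1e was at -0.98 ± 0.07 (adjusted p = 1.62e-16) and Cacna2d2 at -0.99 ± 0.08 (3.3e-15), each lower in Col12a1 neurons in 10 of 10 libraries, and Cacna1a was higher at 0.57 ± 0.06 (1.52e-10), also in 10 of 10. Cacna1b stood at the limit with 0.50 ± 0.07 (adjusted p = 2.56e-07). Without TMM factors the median of all genes moved from -0.01 to -0.10 and the share of called genes that were higher in Col12a1 neurons from 53.7% to 42.1%, and the call for Cacna1a was lost at 0.48, as it was with the exclusive split. The neuron markers Rbfox3, Snap25 and Syt1 summed to 2462 ± 222 CPM in Col12a1 and 1956 ± 105 in Cadps2 neurons, and their part in these differences was not tested.

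Between Col12a1 and Npsr1 neurons 14.1% of all genes and 4 of 8 members were called. Cacna1e had -1.41 ± 0.08 (adjusted p = 6.88e-19), Cacna2d2 -1.11 ± 0.10 (4.7e-13), Cacna2d3 0.69 ± 0.11 (3.4e-06) and Cacna1a 0.57 ± 0.08 (1.61e-07), each with the same sign in 6 of 6 libraries. With the exclusive split, which left 2 libraries with an Npsr1 sum, only Cacna1e was still called, and in the female libraries alone Cacna2d3 was not (0.51, adjusted p = 0.301). Between Cadps2 and Npsr1 neurons 5.2% of all genes and 0 of 8 members were called by edgeR, 0 by DESeq2, and 4 had an unadjusted p under 0.05. The Npsr1 neurons in this pair carried the Cadps2 levels given above. The largest differences were -0.43 ± 0.08 for Cacna1e (lower in Cadps2 neurons in 6 of 6 libraries) and 0.40 ± 0.11 for Cacna2d3.

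**Figure D5:**
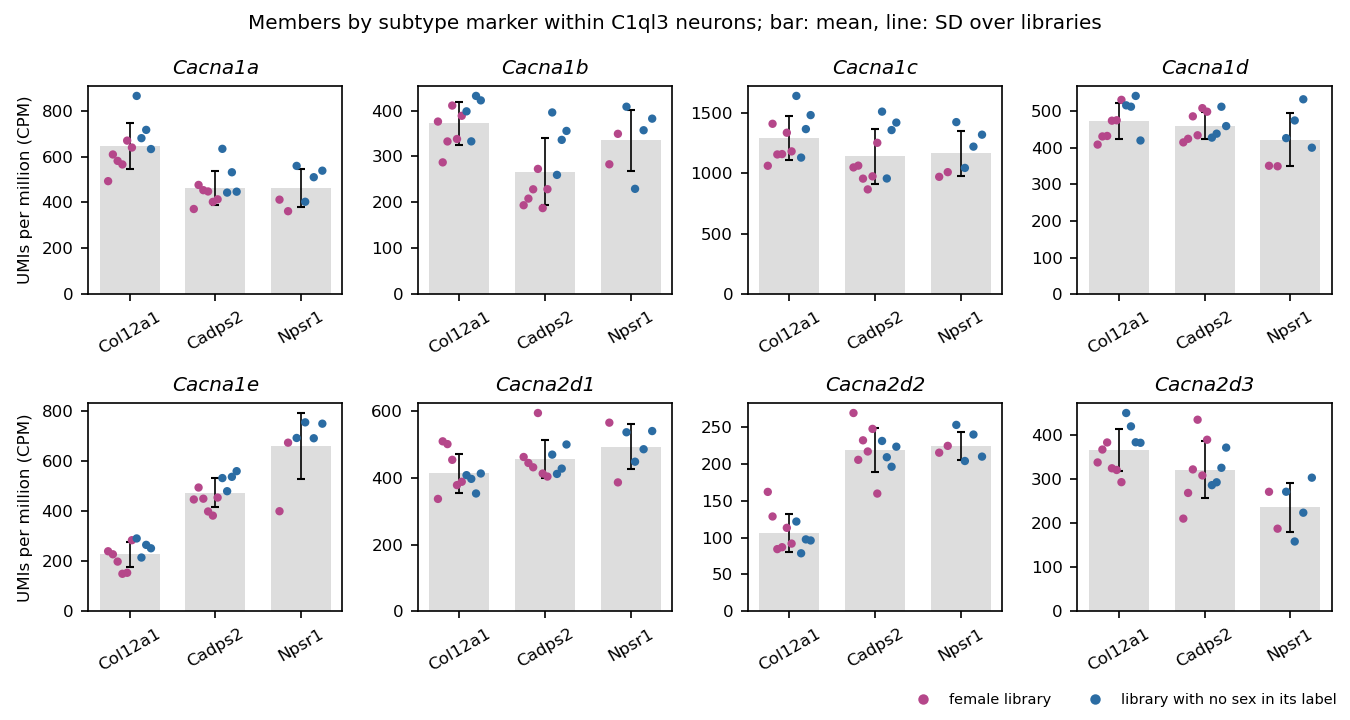
Points are libraries, bars their mean and lines the SD of the CPM (y axis, linear, from 0) in C1ql3 neurons split by 3 subtype markers, with 10 libraries for Col12a1 and Cadps2 and 6 for Npsr1. Cacna1e and Cacna2d2 are lowest in Col12a1 neurons, where Cacna1a is highest.

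The same 3 lists were counted between the subtypes. Of all genes 17.4% were called for Col12a1 against Cadps2, 14.1% for Col12a1 against Npsr1 and 5.2% for Cadps2 against Npsr1. Of 11 other channel genes tested between Col12a1 and Cadps2 neurons, 3 were higher and 2 lower, with the T-type pore Cacna1i at 1.93 ± 0.14, Cacnb4 at 1.53 ± 0.09, Cacng4 at 0.89 ± 0.14 and Cacng3 at -1.36 ± 0.09. Of 12 partners 2 were higher and 1 lower, among them Nrxn3 at 2.05 ± 0.15 and Stac at -2.21 ± 0.22. Of 12 store and clearance genes 6 were higher and 1 lower, the latter being Ryr2 at -3.88 ± 0.13, beside Calb1 (a calcium buffer) at 1.47 ± 0.14, Itpr1 at 1.04 ± 0.08 and Atp2b1 at 0.90 ± 0.06. Against Npsr1 neurons Ryr2 was likewise lower in Col12a1 neurons, at -3.40 ± 0.16, and the counts of the 3 lists were 3 higher and 2 lower, 1 and 1, and 4 and 1. Between Cadps2 and Npsr1 neurons they were 3 and 1, 0 and 1, and 1 and 0.

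The 6 female libraries were compared with the other 4 in C1ql3 neurons, with 12903 genes tested. Of all genes 11.6% were called and of the members 0 by edgeR and 0 by DESeq2, with 5 at an unadjusted p under 0.05. The members' median log2 difference was -0.29 and that of all genes -0.02, so most members were somewhat lower in the female libraries. Cacna1b had a mean of 302 ± 11.9 CPM in the female libraries (n = 6) and 390 ± 49.4 in the others (n = 4), a log2 difference of -0.45 ± 0.10 (adjusted p = 0.00769), which went past the fold limit at -0.55 without library 2 of those with no sex in the label. Cacna1a had 530 ± 30.9 and 653 ± 91.6 CPM, a difference of -0.38 ± 0.10 (adjusted p = 0.0168, which passed 0.05 without library 1 of those with no sex in the label). Cacna2d1 was level, at 426 ± 27.7 and 420 ± 19.6 CPM with a difference of -0.06 ± 0.09. The 2 sets also differed in depth, with medians of 7621 and 15171 UMIs per C1ql3 neuron, and in the mitochondrial counts, so that sex, depth and processing cannot be told apart.

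Whether the sets differed more in C1ql3 neurons than in the other classes was tested as an interaction. Of all genes 0.017% were called, and 0 members were called, with 0 at an unadjusted p under 0.05. DESeq2 was not run for it. The estimates lay between -0.47 ± 0.25 for Cacna2d3 and 0.25 ± 0.13 for Cacna1e.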

How the data were processed

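Nuclei were captured with the 10x Genomics 3′ v3 chemistry. The deposited values are raw UMI counts for each gene in each nucleus, produced by the authors with Cell Ranger (6.1.1 in the submitters' processing notes, an earlier version in the methods) against mm10, without normalization. Nuclei with fewer than 200 genes or over 5% mitochondrial reads had been left out by the authors, who also removed doublet clusters, and no doublet caller was run again. Cell type names and the library of each nucleus were read from the deposited metadata.

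From these counts UMIs were summed per library and class. edgeR 4.0.16 (TMM, filterByExpr by class, glmQLFit and glmQLFTest, Benjamini-Hochberg over all genes tested) was the main test, with the library as a block for classes and no covariate between library sets. DESeq2 1.42.0 was an alternative, run in R 4.3.3. The test was checked on simulated data before use. SE is the log2 fold change divided by the root of F. P-values between classes reflect how much the class difference varied from library to library, since the library was a block. Between library sets they reflect the spread between libraries, labelled as biological replicates.

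Named were the 8 members, at most 4 called genes with the largest change of each list and comparison, and for each member the 2 genes with the highest r. The values of 1 list gene are not reported here. The members and lists were chosen with earlier results of these data known. Alternatives were no block, no TMM, no filter, DESeq2, at least 3 UMIs of a marker, an exclusive split, neurons of over 5000 UMIs, each library set alone, each library left out, and, added after seeing the data, the fit without the Gad2 class.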

Additional observations from a re-analysis of the deposited data

Results flagged for a closer look

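Among 104 groups of 4 or 6 libraries of the same set in which a member's level could be screened, 3 held a library far from the rest of its group (Dixon's test at the 95% level), where chance gives about 5% of groups. Cacna1e in Nwd2 neurons was at 1706.0 CPM in female library 6, from 15 nuclei and 108 UMIs, and the other 5 female libraries had 1283.3 to 1436.9 CPM. Cacna2d1 in Cadps2 neurons was at 594.9 CPM in female library 4, from 25 nuclei and 85 UMIs, and the other female libraries had 404.3 to 462.9 CPM. Cacna2d3 in the Gad2 class was at 1680.6 CPM in female library 2, from 12 nuclei and 147 UMIs, and the other 3 female libraries with a sum had 365.8 to 566.9 CPM. The last of these bears on a call, since Cacna2d3 was no longer called between the C1ql3 and Gad2 classes without that library (adjusted p = 0.0856).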

How the results depend on the processing

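The pairs among C1ql3, Adarb2 and Nwd2 neurons and Col12a1 against Cadps2 kept their count of called members within 1.5 times under every alternative run. In C1ql3 against the mean of the others the count of 4 became 1 with the exclusive split and 2 with neurons of over 5000 UMIs or the female libraries alone, and 2 to 5 with a library left out. In Gad2 against the mean the count of 2 became 1 without the filter, with 3 UMIs, the exclusive split, over 5000 UMIs or the libraries with no sex in the label alone, and 0 to 3 with a library left out. In C1ql3 against Gad2 the count of 1 became 0 with 3 UMIs, over 5000 UMIs or the libraries with no sex in the label alone, and 0 to 1 with a library left out. Col12a1 against Npsr1 went from 4 to 1 with the exclusive split, and Cadps2 against Npsr1 from 0 to 2 with 3 UMIs. Between the library sets the count of 0 became 1 without the filter and 0 to 1 with a library left out. The causes were not tested.

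Fold changes that turned direction had not been called. With the exclusive split these were 0.0901 for Cacna1c in C1ql3 against the mean, -0.2413 and -0.1646 for Cacna2d1 and Cacna2d3 in Gad2 against the mean, -0.0615 for Cacna1c in Gad2 against Nwd2, and -0.1649, -0.039, 0.2664 and -0.1023 for Cacna1c, Cacna1d, Cacna2d2 and Cacna2d3 in Cadps2 against Npsr1. Cacna1d in Adarb2 against the mean was at -0.0813 without TMM, -0.0417 in the libraries with no sex in the label and -0.0519 without the Gad2 class. Without the filter Cacna2d2 in Gad2 against the mean was at -0.0033, and Cacna1a at 0.0881 in C1ql3 against Gad2 and 0.0749 in Cadps2 against Npsr1. Cacna1a in C1ql3 against Gad2 was at 0.1842 with 3 UMIs, 0.1479 in the libraries with no sex in the label and -0.032 to 0.0226 with a library left out, and Cacna2d1 at -0.0079 with over 5000 UMIs. The Cacna1a log2 fold change, Cadps2 against Npsr1, was 0.0294 without TMM, 0.1325 in the female libraries and -0.0308 to 0.1054 with a library left out, and in that pair Cacna1c was at -0.0498 and Cacna1d at -0.0604 with 3 UMIs, and Cacna1d at -0.0097 in the libraries with no sex in the label. The Cacna2d1 log2 fold change, female against male libraries in C1ql3 neurons, was 0.0175 without TMM and -0.0941 to 0.0162 with a library left out, and the Cacna2d2 log2 fold change, female against male libraries in C1ql3 neurons, -0.1523 to 0.0211 with a library left out.

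Male here is the entry in the deposited metadata. The replicate numbers did not pair the sets, as same-numbered libraries had correlations of -0.0809 to 0.0234. With the replicate block 0 members were called between the sets, and the Cacna1b log2 fold change, female against male libraries in C1ql3 neurons, was -0.4476. Between classes, where the library was the block, leaving it out gave 4 in place of 3 calls for Col12a1 against Cadps2 and Cacna1c at -0.0631 in Cadps2 against Npsr1. The Gad2 and Npsr1 sums were the smallest and limit what their pairs can show.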
